A study of Homo sapiens with 12 samples.

Results

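TGFB2 and FGF5 encode 2 secreted growth factors, transforming growth factor beta 2 and fibroblast growth factor 5, and were followed here through 12 RNA libraries of KKU-213A, a human line of cholangiocarcinoma, the cancer of the bile ducts, of mixed type with papillary and non-papillary parts. They were found by gene symbol in the deposited tables and are 2 of the 5308 genes that at least 1 of the 3 tables lists. They were chosen by their levels across these same libraries, lactate cultures against acid alone, so their own values are given as a description, with no test. Lactic acidosis cells grew at pH 6.7 with lactate (25 mM, as L-lactate) and with HEPES, a buffer (25 mM), after a stepwise change of medium. Lactosis cells grew at pH 7.4 with 25 mM L-lactate, and acidosis cells at pH 6.5 with 25 mM HEPES. Control cells grew in the low-glucose medium with serum on which all 4 media are based, and each group has 3 libraries. The treated groups were kept in these media for 5 passages or more before use. No passage number is given for control cells, so treatment and time in culture cannot be told apart.

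Lactic acidosis and acidosis differ in pH as well as in lactate, and HEPES is given only for these media, so acid cannot be told apart from the buffer. The treated groups share the same 3 control libraries, and both lactate groups are set against the same 3 acidosis libraries. The labels do not state that replicate libraries are separate cultures, so p-values reflect library-to-library spread, and that spread may be technical. All values come from 1 cell line in bulk, where fewer cells with an RNA and less of it per cell cannot be told apart. The values are the authors' length-scaled expression values per library, called levels below, and levels of different genes can be compared on this scale.

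TGF-beta ligands are secreted in a latent form, held by latency proteins and binding proteins of the matrix, and are released by integrins, thrombospondin or proteases. The free ligand binds the receptor TGFBR2, which recruits TGFBR1, and the SMAD proteins carry the signal to target genes. TGFB2 binds these receptors well only with the coreceptor betaglycan, and the family as a whole is known for growth arrest of epithelial cells, for epithelial-mesenchymal transition and for the dense stroma of bile duct cancer. FGF5 is a heparin-binding ligand that signals through FGF receptors to the RAS and MAP kinase cascade, whose feedback inhibitors are the Sprouty, SPRED and DUSP proteins. It is best known for ending the growth phase of the hair cycle.

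The start regions of both genes are shown because their levels differed between lactate and acid cultures. TGFB2 lies on chromosome 1 from 218346235 to 218444619 on the plus strand in GENCODE release 29 on GRCh38, and FGF5 on chromosome 4 from 80266599 to 80336680, also on the plus strand. The windows below are the 250 bases before a RefSeq start of each gene in GRCh38.p14, chr1:218345086-218345335 for TGFB2 and chr4:80266338-80266587 for FGF5, both plus strand. Capitals mark matches to the motifs searched on both strands, which were the TATA box TATAAA, the E-box CACGTG, the half-site CGTCA of the cAMP response element, its full form TGACGTCA, the AP-1 site TGANTCA, the GC box GGGCGG and the SMAD box GTCTAGAC.
TGFB2: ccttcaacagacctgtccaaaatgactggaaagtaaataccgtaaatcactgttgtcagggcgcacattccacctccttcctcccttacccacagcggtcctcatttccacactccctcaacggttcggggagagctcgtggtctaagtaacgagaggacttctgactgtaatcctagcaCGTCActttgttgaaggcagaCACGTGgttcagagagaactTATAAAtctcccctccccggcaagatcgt
FGF5: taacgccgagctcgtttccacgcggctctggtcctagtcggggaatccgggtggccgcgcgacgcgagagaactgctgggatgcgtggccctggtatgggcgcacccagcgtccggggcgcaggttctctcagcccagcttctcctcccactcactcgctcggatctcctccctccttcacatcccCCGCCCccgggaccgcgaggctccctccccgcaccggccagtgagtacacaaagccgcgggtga

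The TGFB2 window holds a TATA box at bases -29 to -24 from the RefSeq start, an E-box at -49 to -44 and a cAMP half-site at -70 to -66. That window ends at 218345335, upstream of the GENCODE start at 218346235, so the positions do not refer to the GENCODE start. It also lies within the span of the antisense gene TGFB2-AS1, 218344196 to 218345678 on the minus strand. Of 35114 RefSeq windows of the same length, 10.7% hold the TATA box, 6.35% the E-box and 21.2% the half-site on either strand. The FGF5 window printed holds 1 match, a GC box on the minus strand at -64 to -59, which reads CCGCCC on the strand printed. GC boxes are found in 42.6% of windows. The full cAMP element (1.65% of windows), the AP-1 site (6.57%) and the SMAD box (0.182%) match neither printed window. The printed windows have 50.4% G and C for TGFB2 and 68.8% for FGF5. RefSeq gives FGF5 a second start, whose window at chr4:80268018-80268267 has 47.2% G and C, holds overlapping TATA box matches at -215 to -210 on the minus strand and -213 to -208 on the plus strand, and has no match to the other motifs. Which start the cells used was not tested.

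TGFB2 was highest in lactic acidosis and lowest in acidosis. Its levels were 9.28, 11.14 and 8.89 in lactic acidosis libraries, 2, 1.54 and 1.23 in acidosis libraries and 2.13, 3.6 and 4.83 in control libraries. The lactosis table does not list TGFB2, so its level there was not analysed here. No 2 groups overlapped, although the highest acidosis library lay just under the lowest control library. The group means were 9.77 ± 1.2 in lactic acidosis, 1.59 ± 0.387 in acidosis and 3.52 ± 1.35 in control (SD, n = 3 each).

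Lactate with acid thus stood against acid alone at a ratio of means of 6.14 for TGFB2, with single libraries between 4.45 and 9.06 times apart, and a difference of 2.06 in mean log2(value + 1). Among the 1304 genes that both tables list, 46.5% had every lactic acidosis library higher than every acidosis library. Against control, the ratio of TGFB2 means was 2.78 in lactic acidosis and 0.452 in acidosis. In the authors' deposited tables the log2 fold change of TGFB2 was 1.39 in lactic acidosis, from mean normalised counts of 496 in lactic acidosis and 189 in control. In acidosis it was -1.13, from 84.3 in acidosis and 185 in control. Of the genes of each table, 58.2% had every lactic acidosis library higher than every control library, and 25.3% had every acidosis library lower than every control library. By the size of the authors' fold change TGFB2 ranked 211th of the 2521 genes listed higher in lactic acidosis and 109th of the 670 listed lower in acidosis.

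FGF5 was higher in every treated group than in control, and highest in lactosis. Its levels were 3.13, 3.79 and 3.24 in lactic acidosis libraries, 4.73, 5.59 and 5.66 in lactosis libraries and 1.91, 1.58 and 1.56 in acidosis libraries, against 0.09, 0.52 and 0.75 in control libraries. No group overlapped with another, so the order of levels was lactosis, lactic acidosis, acidosis and control, with no neighbours closer than the range of their libraries. The means were 3.39 ± 0.354 in lactic acidosis, 5.33 ± 0.518 in lactosis, 1.68 ± 0.197 in acidosis and 0.453 ± 0.335 in control (SD, n = 3 each).

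Against acid alone, the ratio of FGF5 means was 2.01 in lactic acidosis, with single libraries between 1.64 and 2.43 times apart, and 3.16 in lactosis, with single libraries between 2.48 and 3.63 times apart. The differences in mean log2(value + 1) were 0.71 and 1.24. Among the 1173 genes of both tables, 26.3% had every lactosis library higher than every acidosis library. Lactic acidosis stood at 0.636 of lactosis, and 8.45% of the 2344 genes common to these 2 tables had every lactic acidosis library lower than every lactosis library. Where TGFB2 was lower in acidosis than in control, FGF5 was higher there, at 3.71 times the control mean.

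**Figure D1:**
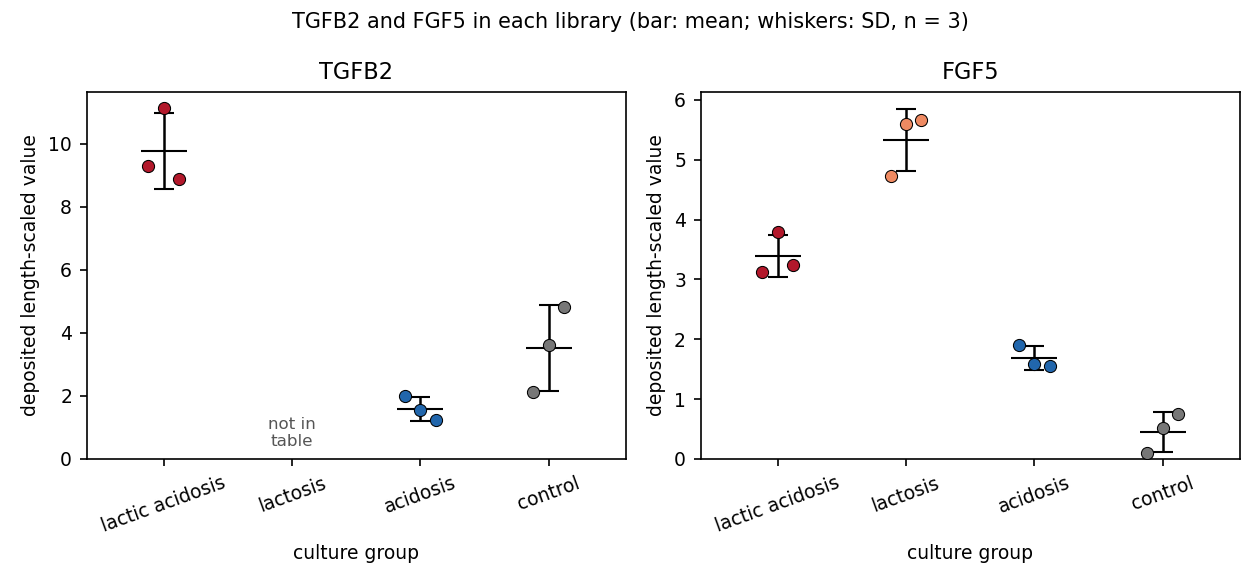
Deposited level of TGFB2 and FGF5 in each library, with circles for libraries, bars for group means and whiskers for the SD (n = 3); the vertical axis is the length-scaled expression value. TGFB2 lies between 8.89 and 11.14 in lactic acidosis, above all other libraries that have a value, and FGF5 lies between 4.73 and 5.66 in lactosis and at or below 0.75 in control.

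Against control, FGF5 means stood at a ratio of 7.47 for lactic acidosis cells, 11.8 for lactosis cells and 3.71 for acidosis cells. The authors' deposited log2 fold changes of FGF5 were 2.84 with lactate and acid, 3.59 with lactate alone and 1.94 with acid alone, ranked 39th of 2521, 14th of 1830 and 13th of 1051 genes listed higher. Every library was higher than every control library for 52.1% of the genes in the lactosis table and for 50.2% in the acidosis table. These folds rest on few reads in control. The authors' mean normalised counts of FGF5 were 157 in lactic acidosis cells, 234 in lactosis cells and 81.5 in acidosis cells, against 21.5, 19.1 and 21 in control in the same tables. Shared out by the library values, the lactic acidosis table gives 5.3, 24.6 and 34.4 normalised counts of FGF5 in control replicates 1, 2 and 3. Without control replicate 1 the FGF5 ratios to control were 5.33 for lactic acidosis, 8.39 for lactosis and 2.65 for acidosis. Without control replicate 3 it was 11.1, 17.5 and 5.52 in the same order of groups.

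Control replicate 1 was the lowest control library for both genes. Library weights that turn the deposited levels into the authors' group means were between 1.164 and 1.18 for this library and between 0.903 and 0.933 for the other controls. Rescaled by these weights, control replicate 1 was still the lowest control library in the lactic acidosis table, at 0.105 for FGF5, against 0.485 and 0.677 in control replicates 2 and 3, and at 2.48 for TGFB2, against 3.36 and 4.36. With all levels rescaled, FGF5 means stood at 7.35 times control in lactic acidosis, 12.3 times in lactosis and 3.91 times in acidosis, and TGFB2 means at 2.63 in lactic acidosis and 0.455 in acidosis. Rescaled, lactic acidosis stood at 5.79 times acidosis for TGFB2 and 1.88 for FGF5. Treated libraries had mean log2 weights over control of -0.12 in the lactic acidosis table, -0.04 in the lactosis table and -0.02 in the acidosis table. The weights differ between libraries, so the shift of a gene depends on its spread over the libraries. Rescaling lowered the FGF5 ratio to control in lactic acidosis and raised it in lactosis and acidosis.

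The libraries were also described by markers of bile duct, fibroblast and muscle, which were named after their values were seen. The tables hold only genes that the authors called, so listing or absence of a marker does not show whether it was expressed. Of 8 bile duct markers 4 were in a table, and KRT19, a keratin of bile duct epithelium, lay between 2596 and 3067 in lactic acidosis, between 2729 and 2876 in lactosis and between 2799 and 4419 in control. SOX9, a transcription factor of bile duct cells, lay between 32.85 and 35.7 in lactic acidosis, against 6.41 to 17.34 in control. CDH1, E-cadherin, lay between 99.46 and 118 in lactic acidosis and between 52.69 and 78.71 in acidosis, against 68.48 to 89.13 in control. MUC1, a mucin, lay between 0.33 and 0.35 in lactic acidosis and between 0.61 and 0.96 in lactosis, against 1.41 to 2.3 in control. In lactic acidosis SOX9 and CDH1 thus lay above control, MUC1 lay below it and KRT19 overlapped with it, and their part in the results was not tested. Of all genes in the lactic acidosis table, 58.2% had every treated library above every control library, and 32.0% had every one below. None of 7 fibroblast markers was in any table. All 12 muscle markers were in a table, with summed levels of 17 to 55.4 over 9 genes in lactic acidosis, 0.49 to 56 over 7 genes in lactosis and 38.5 to 58.1 over 12 genes in control. The sums cover different genes, so they cannot be compared between groups. TNNI2, TNNT3 and MB lay under control in lactic acidosis, TNNI2 at 12.37 to 14.87 against 26.23 to 40.98. MYH1, MYH2, ACTA1, ACTC1, MYL3 and CKM lay above all control libraries in lactic acidosis replicate 2. Lactic acidosis replicate 2 and lactosis replicate 2 stood apart. CKM, the muscle creatine kinase, had levels of 0.47, 4.97 and 0.19 in lactic acidosis, 0, 8.29 and 0.1 in lactosis and at most 0.14 in control. Lactic acidosis replicate 2 was also the highest of its group for TGFB2 and FGF5. Without it the ratios to acidosis were 5.71 for TGFB2 and 1.89 for FGF5, and without lactosis replicate 2 the ratio of lactosis to acidosis was 3.09 for FGF5.

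The tables place few other genes of both pathways in lactate and acid cultures alike. A list of 81 genes of the TGF-beta family, its receptors, SMADs, inhibitors and targets had 27 members in a table, and a list of 84 genes of the FGF pathway had 34. Between lactic acidosis and acidosis, 48.8% of all 1304 genes passed limma on log2(value + 1) at a Benjamini-Hochberg adjusted p under 0.05, with 38.7% higher and 10.0% lower in lactic acidosis. With TGFB2 and FGF5 left out, 2 of 3 tested members of the TGF-beta list rose and none fell, and 6 of 8 of the FGF list rose and none fell. The median log2 difference was 0.77 for the TGF-beta list and 0.82 for the FGF list, against 0.15 over all genes of the fit. With 3 genes, the TGF-beta median is the value of INHBE alone, a gene with low levels in both groups. Between lactosis and acidosis, 23.9% of 1173 genes passed, with 16.4% higher and 7.50% lower in lactosis. There 1 of 4 members of the TGF-beta list and 2 of 8 of the FGF list rose and none fell, with medians of 0.01 and 0.24 against 0.05 over all genes. The FGF count was 4 without lactosis replicate 2, all higher, and 5 with rescaled levels, of which 4 were higher and 1, SOS2, was lower at -0.25 (limma adjusted p = 0.0396). In the same settings the counts over all 1173 genes were 268 and 374, against 280 with all libraries. They were 131 without acidosis replicate 2 and 156 without lactosis replicate 1, where the FGF count stayed at 2.

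Among the TGF-beta ligands, INHBA, which encodes the subunit of activin A, was highest in lactic acidosis, as TGFB2 was, but lay above control in acidosis. Its levels were 25.03, 21.8 and 22.92 in lactic acidosis cells, 9.98, 10.56 and 9.87 in lactosis cells and 6.3, 5 and 4.21 in acidosis cells, against 2.44, 2.22 and 3.47 in control. All treated libraries lay above all control libraries, and all lactate libraries lay above all acidosis libraries. Every treated library was higher than every control library for 58.2%, 52.1% and 50.2% of all genes in the lactic acidosis, lactosis and acidosis tables. For 46.5% of common genes every lactic acidosis library, and for 26.3% every lactosis library, was higher than every acidosis library. INHBA rose in lactic acidosis against acidosis by a log2 difference of 1.99 (SE 0.119, limma adjusted p = 2.85e-06) and in lactosis against acidosis by 0.87 (SE 0.119, limma adjusted p = 0.0021). INHBE, a related activin subunit, had levels of 0.89, 0.97 and 1.42 in lactic acidosis cells, 0.33, 0.08 and 0.2 in lactosis cells and 0.21, 0.1 and 0.36 in acidosis cells, against 11.15, 7.94 and 3.47 in control. It was low in every treated group, and within that range it was higher in lactic acidosis than in acidosis, by 0.77 (SE 0.114, limma adjusted p = 0.000598). SMAD2, which carries the TGF-beta signal, did not pass in either comparison with acidosis, at log2 differences of 0.08 in lactic acidosis and 0.04 in lactosis, and turned to -0.01 in lactic acidosis with rescaled levels.

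Against control, most genes of every table passed limma, since the tables hold genes that the authors had called on the same libraries. In lactic acidosis 86.1% of 4279 genes passed, 55.3% higher and 30.8% lower, and of the 20 tested members of the TGF-beta list 13 rose and 4 fell. In lactosis 77.7% of 3087 genes passed, 46.5% higher and 31.2% lower, and of 15 members 8 rose and 5 fell. The median log2 difference of the TGF-beta list was 0.62 in lactic acidosis and 0.49 in lactosis, against 0.45 and 0.37 over all genes. In acidosis 60.0% of 1721 genes passed, 35.9% higher and 24.2% lower, and of 6 members 1 rose and 3 fell, with a median of -0.39 against 0.32 over all genes. That count of 4 was 2 without acidosis replicate 2, acidosis replicate 3 or control replicate 2, and 6 without control replicate 1. Over all 1721 genes the counts were 425, 586, 526 and 1236 in this order of settings, against 1033 with all libraries.

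All 4 listed genes of latency and activation rose in lactic acidosis, where 55.3% of all genes of the table rose. THBS1, thrombospondin 1, which activates latent TGF-beta, had levels of 618, 743 and 685 in lactic acidosis and 359.82, 318 and 415 in lactosis, against 15.15, 82.45 and 180 in control. Its control libraries lay far apart, all under the lactate libraries, as for 58.2% of all genes in the lactic acidosis table and 52.1% in the lactosis table. The log2 difference of THBS1 was 3.45 in lactic acidosis (SE 0.694, limma adjusted p = 0.00284) and 2.54 in lactosis (SE 0.688, limma adjusted p = 0.0117). LTBP1, which binds latent TGF-beta to the matrix, rose by 0.95 (limma adjusted p = 0.000546) and ITGB6, an integrin subunit, by 1.36 (limma adjusted p = 0.0118). ITGAV, the integrin chain that pairs with ITGB6, rose by 0.6 (limma adjusted p = 0.0182), and without lactic acidosis replicate 2 it had an adjusted p of 0.0737. The acidosis table lists no gene of this group.

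TGFBR2, the receptor that binds the ligand, rose in both lactate groups. Its levels were 31.89, 41.67 and 34.71 in lactic acidosis and 25.84, 22.9 and 29.59 in lactosis, against 10.02, 17.02 and 18.77 in control. The lactate libraries lay above all control libraries, as for 58.2% of all genes in the lactic acidosis table and 52.1% in the lactosis table. The log2 differences of TGFBR2 were 1.22 (SE 0.223, limma adjusted p = 0.00178) and 0.77 (SE 0.222, limma adjusted p = 0.0143). Without lactosis replicate 3 the adjusted p of TGFBR2 in lactosis was 0.0564. TGFBR1, its signalling partner, had a log2 difference of 0.4 in lactic acidosis and a limma adjusted p of 0.0511, or of 0.0141 without control replicate 3. ENG, a coreceptor, rose by 0.49 in lactosis at a limma adjusted p of 0.0492, and its adjusted p lay between 0.0635 and 0.175 without lactosis replicates 1 or 3 or control replicates 1 or 2. ACVR1, a receptor of BMPs and activins, fell by 0.38 on the log2 scale in acidosis at a limma adjusted p of 0.0493, a call that was lost without any 1 acidosis library and without control replicate 2 or 3, at adjusted p between 0.0736 and 0.181.

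TGFB1, the most widely expressed ligand of the family, rose by 0.63 in lactic acidosis (limma adjusted p = 0.00338) and by 0.64 in lactosis (limma adjusted p = 0.0035). BMP2, a bone morphogenetic protein, rose by 0.64 in lactic acidosis (limma adjusted p = 0.00321). INHBB, another activin subunit, did not pass in lactosis, at -0.22 (limma adjusted p = 0.249, and 0.0234 without control replicate 1). GDF11, a ligand of activin receptors, rose by 0.49 in lactosis (limma adjusted p = 0.0362), and lay at 0.101, 0.117 and 0.0764 without lactosis replicate 1, lactosis replicate 3 or control replicate 2.

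The inhibitors moved in both directions. FST, follistatin, which binds activin, averaged 278 ± 20.1 in lactic acidosis and 323 ± 20.8 in lactosis, against 59.3 ± 19.7 in control (SD, n = 3 each), log2 differences of 2.26 and 2.48 (limma adjusted p = 0.000123 and 0.000114). TGIF1, a corepressor of SMADs, fell by 0.94 in lactic acidosis and by 1.2 in lactosis on the log2 scale (limma adjusted p = 0.00201 and 0.000698). SMURF2, a ubiquitin ligase of the pathway, rose by 0.61 in lactic acidosis (limma adjusted p = 0.0159, and 0.0619 without lactic acidosis replicate 2). SKIL, another SMAD corepressor, had a log2 difference of -0.39 in acidosis and did not pass (limma adjusted p = 0.0657, and 0.00963 without control replicate 1).

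Of the targets, 2 rose, 2 fell and 1 did not pass in lactic acidosis. CTGF, a matricellular protein, rose by 1.6 in lactic acidosis (limma adjusted p = 0.000166). ID1, a target of BMP signalling, fell by 0.86 on the log2 scale there (limma adjusted p = 0.00113). TGFBI, a matrix protein named for its induction by TGF-beta, had a log2 difference of -0.2 in lactic acidosis (limma adjusted p = 0.279, and 0.00354 without control replicate 1). In lactosis TGFBI fell by 0.6 on the log2 scale (limma adjusted p = 0.016), and lay at 0.0632 without lactosis replicate 1 and at 0.0622 without control replicate 2. Further targets, named after their values were seen, are JUNB, an AP-1 protein, and LOX, which crosslinks collagen. JUNB fell by 0.5 on the log2 scale in lactic acidosis (limma adjusted p = 0.009) and by 0.51 in lactosis (limma adjusted p = 0.0122, with 0.0538 and 0.0542 without lactosis replicate 3 and control replicate 2). LOX fell by 0.57 on the log2 scale in lactosis (limma adjusted p = 0.0109) and by 0.54 in acidosis (limma adjusted p = 0.0162), and in acidosis lay between 0.0614 and 0.0866 without acidosis replicate 2 or 3 or control replicate 2.

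Among the SMADs, SMAD9, which acts in BMP signalling, rose by 0.45 in lactic acidosis (limma adjusted p = 0.0272), with adjusted p between 0.0641 and 0.104 without lactic acidosis replicate 2 or 3 or control replicate 2. SMAD2 did not pass against control, at -0.25 in lactic acidosis cells, -0.28 in lactosis cells and -0.32 in acidosis cells, and passed in all 3 without control replicate 1, at adjusted p of 0.00343, 0.0106 and 0.0103.

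**Figure D2:**
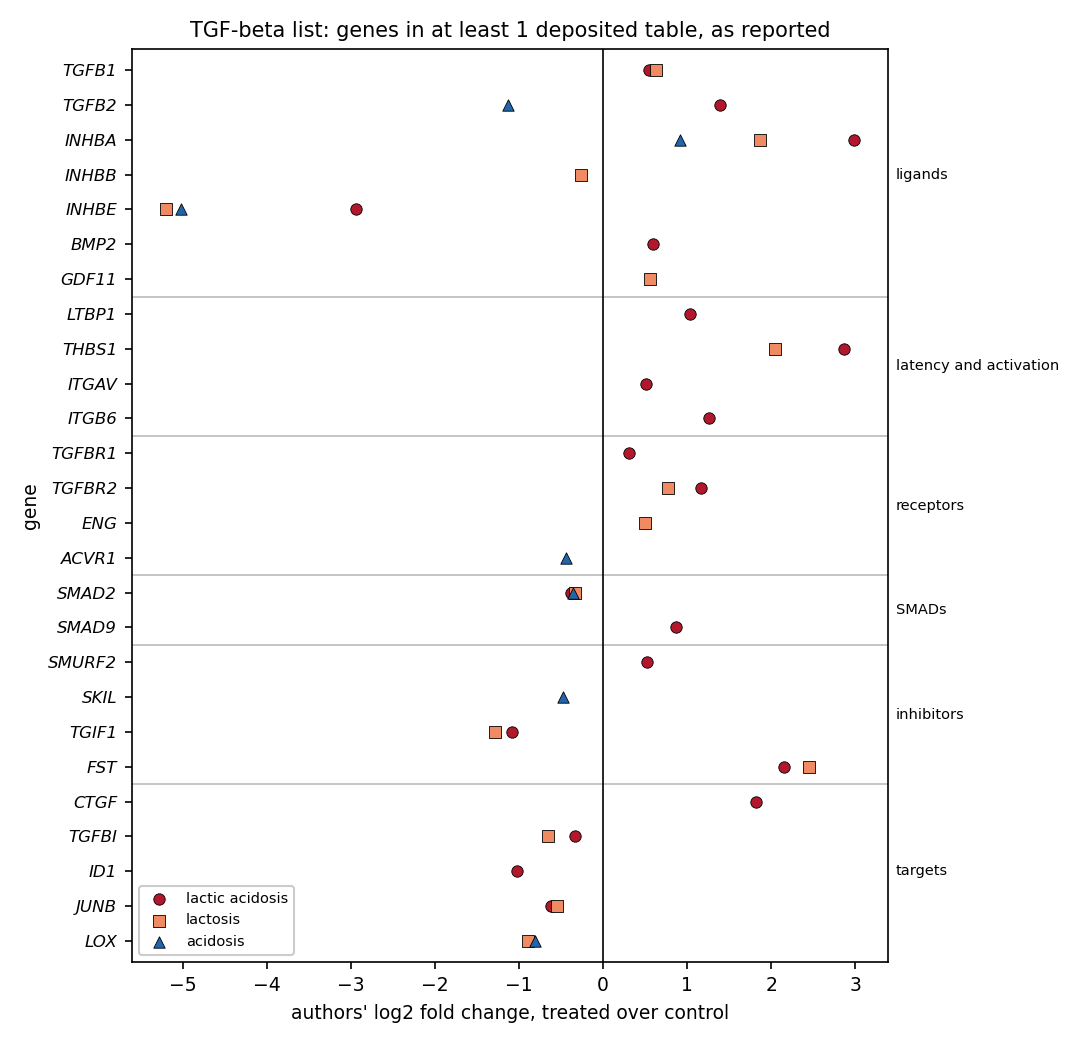
Authors' deposited log2 fold change, treated over control (horizontal axis), of the TGF-beta list genes that a table lists and that are reported here, by role, with circles for lactic acidosis, squares for lactosis and triangles for acidosis; symbols at equal values cover each other. INHBA and THBS1 lie farthest to the right in lactic acidosis, at 2.98 and 2.87, and TGFB2 lies at 1.39 in lactic acidosis and at -1.13 in acidosis.

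FGF5 was the only FGF ligand that the acidosis table lists. The lactic acidosis table lists FGF11 besides, with a smaller deposited fold change, and the lactosis table FGF13 and FGF19, both lower than control. FGF5 was chosen by its levels, so its place first among so few is a description. FGF11, which encodes an intracellular FGF homologous factor that is not secreted, rose by 0.63 in lactic acidosis (limma adjusted p = 0.0364), and lay at 0.0762, 0.0934 and 0.083 without lactic acidosis replicates 1, 2 and 3 and at 0.0513 without control replicate 2. FGF13, another such factor, fell by 0.39 on the log2 scale in lactosis (limma adjusted p = 0.0357), with adjusted p between 0.0656 and 0.135 without any 1 lactosis library or without control replicate 2 or 3. FGF19, an endocrine FGF that represses bile acid synthesis, had levels of 0.11, 0.36 and 0.15 in lactosis, against 1.63, 1.78 and 0.44 in control, and fell by 0.87 on the log2 scale (limma adjusted p = 0.0129). The groups did not overlap, but control replicate 3 lay close to the highest lactosis library. For 31.9% of all genes in the lactosis table every lactosis library was lower than every control library.

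Of the receptors, FGFR3 and FGFR2 fell and FGFRL1 rose. FGFR3, a receptor tyrosine kinase, had levels of 2.87, 3.83 and 3.24 in lactic acidosis and 7.32, 5.73 and 6.11 in lactosis, against 14.18, 28.28 and 30.67 in control. Every lactate library lay under every control library, as for 32.0% of all genes in the lactic acidosis table and 31.9% in the lactosis table, with log2 differences of -2.49 in lactic acidosis (SE 0.26, limma adjusted p = 0.000151) and -1.71 in lactosis (SE 0.26, limma adjusted p = 0.00113). FGFR2, the receptor known for gene fusions in bile duct cancer, had levels of 2.37, 2.14 and 2.37 in lactic acidosis, against 3.49, 5.17 and 5.49 in control, a log2 difference of -0.78 (SE 0.164, limma adjusted p = 0.00344). FGFRL1, which binds FGFs and lacks a kinase domain, rose by 0.76 in lactic acidosis cells, 0.79 in lactosis cells and 0.66 in acidosis cells (limma adjusted p = 0.00556, 0.00679 and 0.0113). In acidosis its adjusted p was 0.0505 without acidosis replicate 1 and 0.0522 without acidosis replicate 2. FGFRL1 did not pass between lactate and acid cultures, at 0.09 in lactic acidosis and 0.12 in lactosis. FGFR1, through which FGF5 mainly acts, is in none of the tables and was not analysed here, and the same holds for TGFBR3, which encodes betaglycan.

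All 7 listed heparan sulfate and binding proteins rose in lactic acidosis and all 4 in lactosis, in tables where 55.3% and 46.5% of all genes rose. FGFBP1, a carrier that releases FGFs from the matrix, averaged 124 ± 7.1 in lactic acidosis and 165 ± 8.26 in lactosis, against 41.7 ± 18.9 in control (SD, n = 3 each). Its log2 differences were 1.64 and 2.05 (limma adjusted p = 0.00125 and 0.000694), and the mean was higher in lactosis than in lactic acidosis, a difference that was not tested. SULF2, a sulfatase that trims heparan sulfate, rose by 0.95 in lactic acidosis (limma adjusted p = 0.00543). SDC1 and SDC4, the syndecans 1 and 4, rose by 0.79 and 0.78 in lactic acidosis (limma adjusted p = 0.00376 and 0.000882). In lactosis SDC1 rose by 0.79 (limma adjusted p = 0.00556) and SDC4 by 0.44 (limma adjusted p = 0.0156, with 0.0649 and 0.0691 without lactosis replicates 1 and 3). The acidosis table lists no gene of this group.

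Against control, 24 of 27 tested members of the FGF list rose in lactic acidosis and 2 fell, 12 of 19 rose and 5 fell in lactosis, and 8 of 10 rose and none fell in acidosis. Over all genes of these tables, 55.3% were higher and 30.8% lower in lactic acidosis, 46.5% and 31.2% in lactosis, and 35.9% and 24.2% in acidosis. The medians were 0.75, 0.59 and 0.62 in this order, against 0.45, 0.37 and 0.32 over all genes. In lactic acidosis 17 of the list passed without lactic acidosis replicate 2, against 26 with all libraries. Over all 4279 genes, 2624 passed in that setting, against 3684 with all libraries. In acidosis 2 passed without acidosis replicate 1 and 3 without acidosis replicate 2, against 8 with all libraries. Over all 1721 genes, 543 and 425 passed in these settings, against 1033 with all libraries.

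The genes of the FGF list that rose in lactic acidosis against acidosis were feedback inhibitors, targets and a kinase. DUSP4, a phosphatase that switches off MAP kinases, had levels of 242, 254 and 244 in lactic acidosis cells, 96.32, 79.65 and 92.35 in lactosis cells and 80.16, 69.68 and 64.37 in acidosis cells, against 52.88, 50.81 and 56.33 in control. Lactic acidosis stood far above the other 3 groups, with a log2 difference of 1.78 from acidosis (SE 0.0901, limma adjusted p = 1.82e-06). DUSP6, which dephosphorylates ERK, rose by 0.68 (limma adjusted p = 0.000239) and SPRY4, a Sprouty inhibitor, by 0.97 (limma adjusted p = 9.13e-05). In lactosis against acidosis the log2 differences were 0.32 for DUSP4, 0.15 for DUSP6 and 0.33 for SPRY4, and none passed (limma adjusted p = 0.0619, 0.177 and 0.0866). DUSP4 passed at 0.0329 without lactosis replicate 2, at 0.0195 without acidosis replicate 1 and at 0.0106 with rescaled levels. SPRY4 passed at 0.0398 without lactosis replicate 2 and at 0.0199 with rescaled levels.

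FOSL1, an AP-1 transcription factor downstream of ERK, had levels of 642, 726 and 705 in lactic acidosis cells, 349.75, 334 and 379 in lactosis cells and 247, 245 and 241 in acidosis cells, against 56.48, 115 and 144 in control. All treated libraries lay above all control libraries, and all lactate libraries lay above all acidosis libraries. Among genes common to 2 tables, 46.5% had every lactic acidosis library higher than every acidosis library, and 26.3% every lactosis library. Between 50.2% and 58.2% of the genes of each table had every treated library higher than every control library. FOSL1 rose in lactic acidosis against acidosis by 1.5 (SE 0.0751, limma adjusted p = 1.82e-06) and in lactosis against acidosis by 0.53 (SE 0.0727, limma adjusted p = 0.00203). CCND1, cyclin D1, averaged 198 ± 5.53 in lactic acidosis cells, 162 ± 22 in lactosis cells and 94.4 ± 11.1 in acidosis cells, against 52.8 ± 19.8 in control (SD, n = 3 each). CCND1 rose by 1.07 in lactic acidosis and 0.77 in lactosis against acidosis (limma adjusted p = 2.62e-05 and 0.0038). MAP2K1, which encodes the kinase MEK1, rose by 0.49 in lactic acidosis against acidosis (limma adjusted p = 0.000619) and had a difference of 0.01 in lactosis (limma adjusted p = 0.954).

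**Figure D3:**
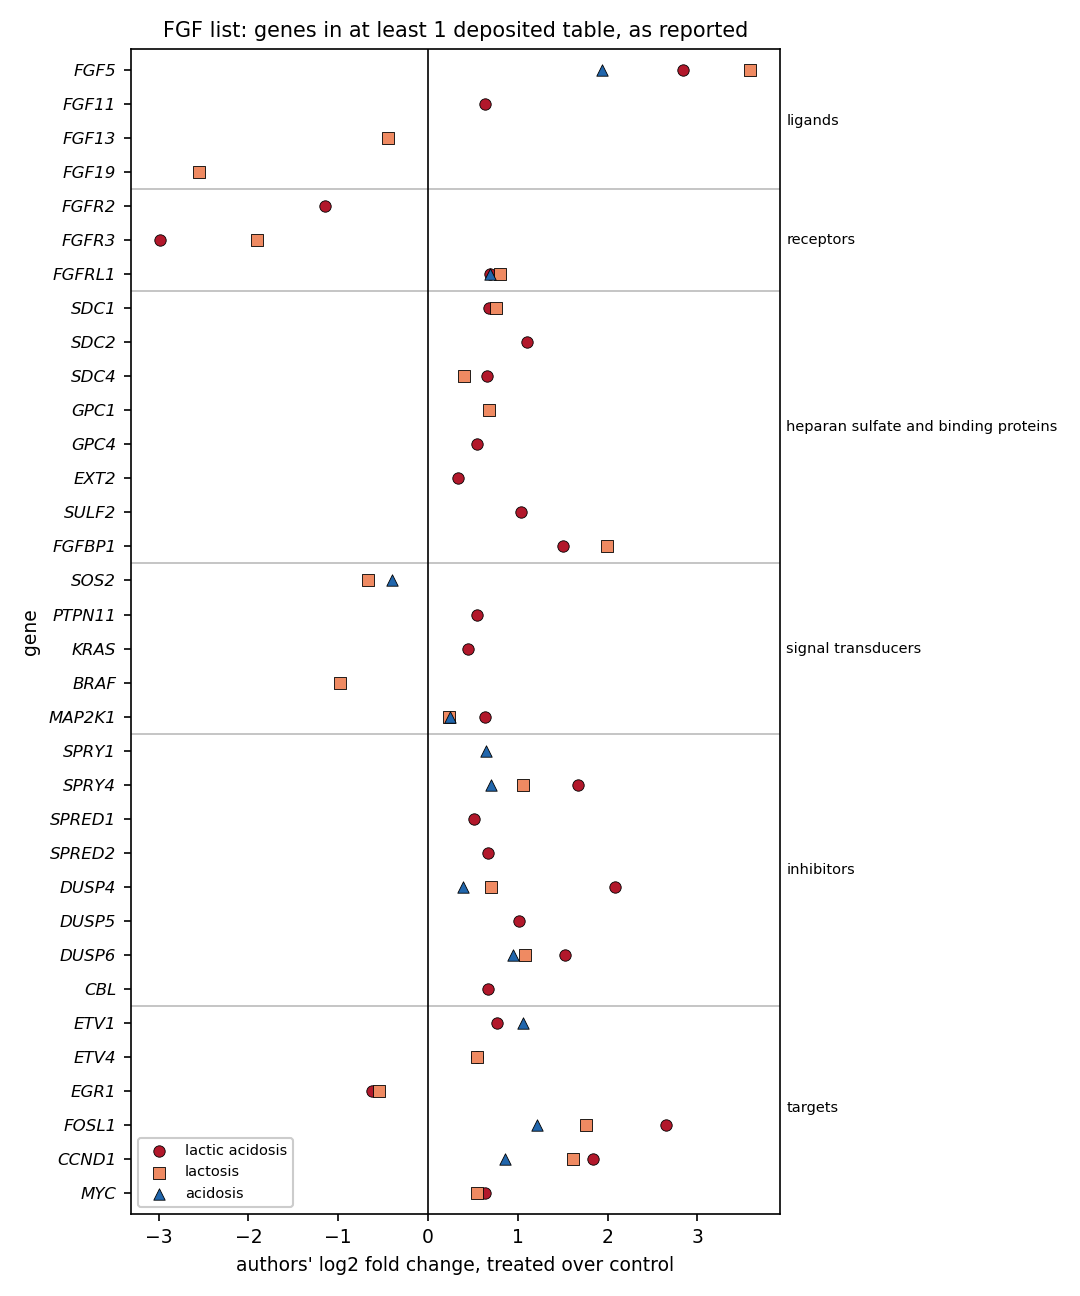
Authors' deposited log2 fold change, treated over control (horizontal axis), of each FGF list gene that a table lists, by role, with circles for lactic acidosis, squares for lactosis and triangles for acidosis; symbols at equal values cover each other. FGF5 has the highest values, at 2.84 in lactic acidosis, 3.59 in lactosis and, for acidosis cells, 1.94, while FGFR3 lies at -2.98 in lactic acidosis.

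In the comparisons with control, the same inhibitors and targets rose in every treated group. The authors had already called these genes against the same control libraries, so their passing here was largely fixed. DUSP6 rose by 1.65 in lactic acidosis cells, 1.13 in lactosis cells and 0.97 in acidosis cells (limma adjusted p = 0.0011, 0.00665 and 0.00629). FOSL1 rose by 2.81, 1.84 and 1.31 in this order of groups (limma adjusted p = 0.000153, 0.00137 and 0.00172). CCND1 rose by 1.96, 1.67 and 0.89 (limma adjusted p = 0.000347, 0.00125 and 0.0085), with 0.0523 in acidosis without acidosis replicate 1. DUSP4 rose by 2.19, 0.73 and 0.41 (limma adjusted p = 1.35e-05, 0.00271 and 0.0406). The call of DUSP4 in acidosis was lost without any 1 acidosis library and without control replicate 2, at adjusted p between 0.0826 and 0.132. SPRY4 rose by 1.56, 0.93 and 0.59 (limma adjusted p = 0.000334, 0.00556 and 0.0225), with 0.085 and 0.0823 in acidosis without acidosis replicates 1 and 2. DUSP5, listed in lactic acidosis alone, rose by 1.11 (limma adjusted p = 0.000248).

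MYC, a growth regulator induced by many mitogens, rose by 0.76 in lactic acidosis and 0.59 in lactosis (limma adjusted p = 0.0093 and 0.0276), with 0.0707, 0.0591 and 0.078 in lactosis without lactosis replicates 1, 2 and 3. ETV4, an ETS factor that FGF signalling induces in embryos, rose by 0.61 and 0.54 (limma adjusted p = 0.00544 and 0.0114), with 0.0543 in lactosis without lactosis replicate 1. Among the signal transducers, MAP2K1 rose by 0.75 in lactic acidosis (limma adjusted p = 0.00189). PTPN11, the phosphatase SHP2 that links receptors to RAS, rose by 0.68 there (limma adjusted p = 0.0234), and lay at 0.0515, 0.0821 and 0.0512 without lactic acidosis replicates 1, 2 and 3. Of the targets of the FGF list, ETV1 and EGR1 were named after their values were seen. ETV1, an ETS factor, rose against control by 0.47 in lactic acidosis (limma adjusted p = 0.0237), and lay at 0.0511, 0.0872 and 0.0634 without lactic acidosis replicates 1, 2 and 3. In acidosis ETV1 rose by 0.59 (limma adjusted p = 0.0174), and lay at 0.0793 and 0.0647 without acidosis replicates 1 and 2. Between lactic acidosis and acidosis it did not pass, at -0.12 (limma adjusted p = 0.394). EGR1, an early response factor, had log2 differences of -0.46 in lactic acidosis and -0.47 in lactosis against control (limma adjusted p = 0.0579 and 0.0626), and passed in both without control replicate 1, at 0.000205 and 0.000918. BRAF, a kinase above MEK, fell by 0.82 on the log2 scale in lactosis (limma adjusted p = 0.00683). SOS2, an exchange factor for RAS, fell by 0.57 on the log2 scale in lactosis (limma adjusted p = 0.0145), and lay at 0.0552 without lactosis replicate 2 and at 0.0589 without control replicate 2.

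The genes whose levels were most like those of each growth factor were ranked by Pearson r of log2(value + 1) over the same libraries. The libraries form few groups and all genes compared had been listed by the authors, so these values describe the libraries and carry no p. For TGFB2, over 9 libraries and 1295 genes, the 5 closest were SLC20A2, a phosphate transporter, at 0.988, TIAL1, an RNA-binding protein, at 0.978, TMEM2, a cell-surface hyaluronidase, at 0.974, CC2D1B at 0.972 and ERRFI1, an inhibitor of the EGF receptor, at 0.971. SLC20A2 averaged 51.3 ± 1.16 in lactic acidosis, 24.8 ± 2.78 in acidosis and 32.6 ± 6.3 in control, and ERRFI1 averaged 401 ± 41.5, 149 ± 19.7 and 246 ± 42.1 in the same groups (SD, n = 3 each). Both were thus highest in lactic acidosis and lowest in acidosis, as TGFB2 was. In lactosis, which these 9 libraries leave out, ERRFI1 averaged 189 ± 23.6, under its control mean. TIAL1 averaged 72.2 ± 4.89 there, against 59.5 ± 6.3 in control (SD, n = 3 each). By Spearman rho all 5 were among the 20 closest, and 2 were among the 5 closest.

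For FGF5, over 12 libraries and 1038 genes, the 5 closest under the naming rule were ZBED2 at 0.979, RBM25, a splicing factor, at 0.977, GPATCH4 at 0.975, WDR61, a subunit of the PAF1 and SKI complexes, at 0.974 and TEX30 at 0.972. ZBED2, a zinc finger transcription factor, averaged 4.06 ± 0.413 in lactic acidosis cells, 5.96 ± 1.31 in lactosis cells and 1.53 ± 0.288 in acidosis cells, against 0.643 ± 0.411 in control (SD, n = 3 each). Its order of groups was that of FGF5, and so was that of RBM25, with means of 101 ± 5.04, 114 ± 4.47, 65.5 ± 2.34 and 44.4 ± 2.35 in the same groups (SD, n = 3 each). By Spearman rho 4 of these 5 were among the 20 closest, at ranks 11 to 18. None was among the 5 closest, and WDR61 ranked 42nd.

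**Figure D4:**
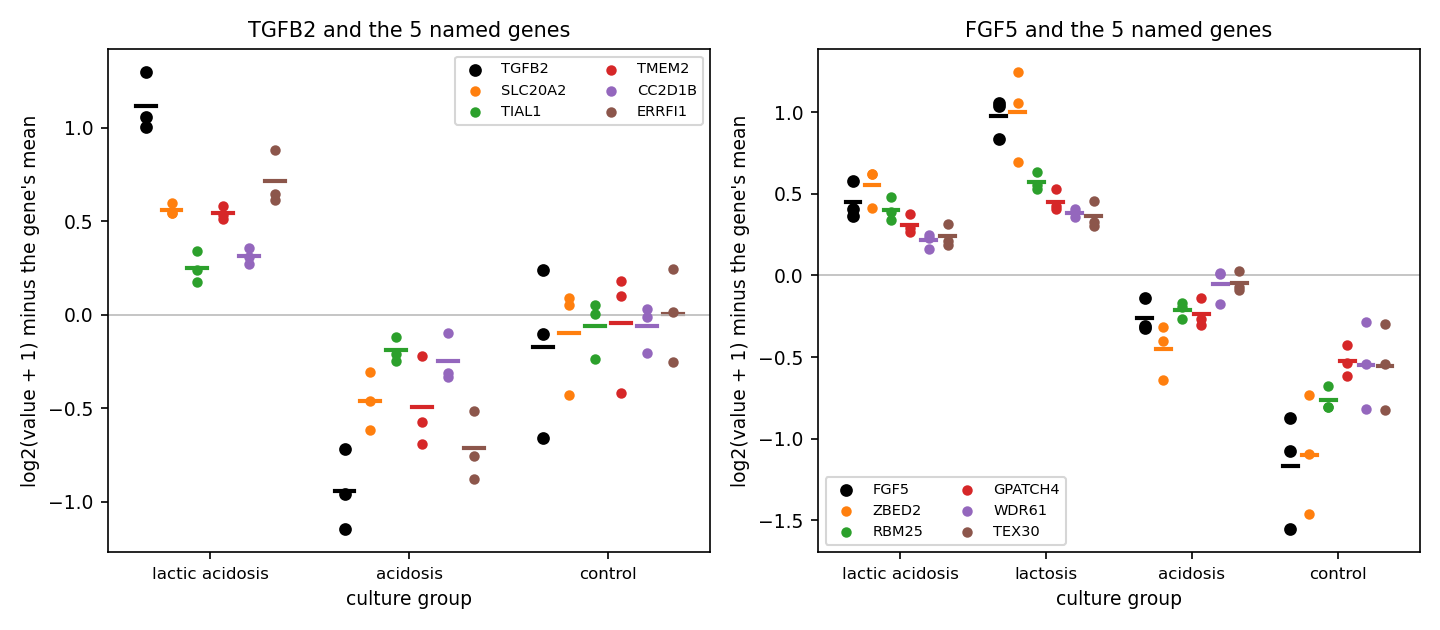
Levels of TGFB2 with its 5 closest genes (left) and FGF5 with its 5 closest genes (right) in each culture group; the vertical axis is log2(value + 1) minus the gene's mean over the libraries shown, points are libraries and bars are group means. The left panel has its highest points in lactic acidosis and its lowest in acidosis, and the right panel has its highest in lactosis and its lowest in control.

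The nearest protein-coding RefSeq gene before each growth factor was listed too. RRP15, a ribosome assembly factor that ends 7.4 kb before TGFB2, averaged 11.2 ± 0.606 in lactic acidosis and 10.8 ± 1.06 in lactosis, against 6.26 ± 0.964 in control (SD, n = 3 each). The authors' deposited log2 fold changes of RRP15 were 0.73 and 0.75, and the acidosis table does not list it. PRDM8, a zinc finger transcription factor that ends 62.3 kb before FGF5, averaged 8.77 ± 0.274 in lactic acidosis and 9.02 ± 1.21 in lactosis, against 5.84 ± 1.12 in control (SD, n = 3 each), with deposited log2 fold changes of 0.49 and 0.6. The next protein-coding genes after TGFB2 and FGF5, LYPLAL1 and CFAP299, are in none of the tables and were not analysed here.

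Both growth factor genes share exonic bases with another gene in GENCODE release 29. TGFB2 has 5151 exonic bases, of which 1371, or 26.6%, are shared with TGFB2-OT1, a transcript that lies in its last exon region on the same strand. FGF5 has 5998 exonic bases, of which 136, or 2.3%, are shared with CFAP299. The antisense gene TGFB2-AS1 shares none of the annotated exons of TGFB2. None of these 3 genes is in any table, and how reads over shared bases were counted is not given in the sources used here, so the levels of TGFB2 and FGF5 are uncertain to that extent.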

How the data were processed

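Polyadenylated RNA of KKU-213A cells was sequenced as single-end reads of 75 nt, per the labels' protocols. STAR and the genome build hg38 are named in the submitters' processing notes, and the counting tool is not given in the sources used here. There are 3 deposited tables, 1 for each treatment, and all use the same control libraries. The deposited per-library values are a signal scaled by gene length and library, and no source used here says if they are TPM or FPKM. Group means, also deposited, are a signal of normalised counts, and library weights were fitted to them. Each deposited fold change is a ratio with control on top, and was inverted. Every listed gene has a deposited posterior probability of equal expression under 0.05, and genes not listed were not analysed here. Control levels did not differ between the tables (largest difference 0.0), which allowed levels to be compared across them. Read depth is unknown because the tables hold no library totals, and no counting intervals were set.

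Genes of each comparison were tested with limma 3.58.1 (R 4.3.3), using log2(value + 1) of 6 libraries and no filter, with Benjamini-Hochberg adjustment over all genes of the fit. Between treated groups, the genes listed in both tables were tested. The step was tested on simulated data in which a minority of genes changed, up or down at random. In the comparisons with control most genes passed, so that simulation does not check those counts. A difference on this scale understates the change of genes with low levels. The replicate numbers were checked for pairing and did not pair the samples. Alternatives were pseudocounts of 0.1 and 5, a mean level of at least 1, rescaled levels, a replicate block and the omission of each library.

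TGFB2, FGF5 and the gene lists were chosen with earlier results of these data known. The text names every listed ligand and receptor, up to 4 genes of each other role by the size of the difference from control, and the 5 genes most like each growth factor. In the ranking for FGF5, 1 gene was passed over under this rule. A target gene of the TGF-beta list that the rule would name is not reported here, although the counts of the list include it. RRP15, PRDM8, LYPLAL1 and CFAP299 were named for their positions, and the marker genes, JUNB, LOX, ETV1 and EGR1 after their values were seen. Sequences are from RefSeq on GRCh38.p14. Other computation and drawing used Python 3.11.15 with pandas 2.3.3, numpy 2.4.6, matplotlib 3.10.9 and scipy 1.17.1.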

Additional observations from a re-analysis of the deposited data

Results flagged for a closer look

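TGFB2 moved in opposite directions in 2 treated groups relative to the same controls. Its difference from control in mean log2(value + 1) was 1.29 in lactic acidosis, where every library lay above every control library, and -0.77 in acidosis, where every library lay below every control library. ERRFI1, among the genes most like TGFB2, had differences of 0.71 in lactic acidosis and -0.72 in acidosis with the same separation of libraries. In lactosis ERRFI1 averaged 189 ± 23.6, against 246 ± 42.1 in control (SD, n = 3 each). The difference between the 2 effects was not tested, since these genes were chosen from the same values.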

How the results depend on the processing

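TGFB2 and FGF5 kept the direction of every difference with pseudocounts of 0.1 and 5, with rescaled levels and with each library left out, the alternatives run for them, and the size of a difference in mean log2(value + pseudocount) moved with the pseudocount, as its construction fixes for low levels. With a pseudocount of 0.1, FGF5 differed by 0.97 in lactic acidosis against acidosis, 1.61 in lactosis against acidosis, and 2.9, 3.54 and 1.94 in lactic acidosis, lactosis and acidosis against control, and TGFB2 by 2.56 in lactic acidosis against acidosis. With a pseudocount of 5 the same FGF5 differences were 0.33, 0.63, 0.62, 0.92 and 0.29, with -0.3 in lactic acidosis against lactosis. TGFB2 then differed by 1.16 in lactic acidosis against acidosis, 0.8 in lactic acidosis against control and -0.36 in acidosis against control.

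The replicate numbers did not pair the samples: deviations of same-numbered libraries from their group means correlated between -0.39 and 0.21 and not every pair of any comparison was over 0.1. With the replicate number as a block, limma called 656 of all genes and 2 of the TGF-beta list in acidosis against control, against 1033 and 4 without it, and other counts stayed within 1.5 times. Rescaled levels gave 1679 calls over all genes in acidosis against control and 5 of the FGF list, 4 higher and 1 lower, in lactosis against acidosis. In lactic acidosis against acidosis they gave 406 higher and 205 lower calls over all genes, against 505 and 131 as deposited. A mean level of at least 1 left 1 call of the TGF-beta list in lactic acidosis against acidosis, since INHBE was no longer tested.

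Leaving out each library in turn gave 485 to 759 calls over all genes in lactic acidosis against acidosis, 131 to 335 in lactosis against acidosis, 2624 to 4064 in lactic acidosis against control, 1423 to 2589 in lactosis against control and 425 to 1251 in acidosis against control. The TGF-beta list gave 2 to 2, 1 to 1, 14 to 19, 9 to 14 and 2 to 6 calls in these comparisons, and the FGF list 6 to 6, 2 to 4, 17 to 27, 13 to 18 and 2 to 9. FGF5 differences ranged between 0.64 and 0.77, 1.2 and 1.31, 1.42 and 1.77, 1.95 and 2.29, and 0.72 and 1.06, with -0.6 to -0.49 in lactic acidosis against lactosis. TGFB2 ranged between 1.96 and 2.17 in lactic acidosis against acidosis, 1.05 and 1.5 in lactic acidosis against control, and -1.01 and -0.56 in acidosis against control. Of single list genes under all alternatives, 1183 of 1316 values stayed on their side of the threshold, 89 lost it, 33 gained it and 11 changed sign. Those 11 belonged to genes that did not pass: with libraries left out in turn, INHBE ranged from -0.1 to 0.06, LOX from -0.1 to 0.04, MAP2K1 from -0.03 to 0.05 and SMAD2 from -0.04 to 0.15 in lactosis against acidosis, and SMAD2 from -0.01 to 0.17 in lactic acidosis against acidosis. Rescaled levels gave -0.01 for MAP2K1 in lactosis and -0.01 for SMAD2 in lactic acidosis, both against acidosis. Calls kept under every alternative that tested the gene were 8 of 8 in lactic acidosis against acidosis, 3 of 3 in lactosis against acidosis, and 31 of 43, 19 of 30 and 4 of 12 in lactic acidosis, lactosis and acidosis against control. Read depth is unknown, and FGF5 rests on authors' mean normalised counts of 19.1 to 21.5 in control.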
